A study of Homo sapiens with 6 samples.

Results

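The 10 genes DROSHA, DGCR8, XPO5, DICER1, TARBP2, PRKRA and AGO1 to AGO4, which encode the core machinery that makes and uses microRNAs, were examined by RNA sequencing in KYSE410, a cell line from a human oesophageal squamous cell carcinoma. They were chosen by name, with earlier results of these data known, and all 10 were found among the 58735 genes of the count table. The siADAR1 group (n = 3) carried a knockdown of ADAR1, an editing enzyme that turns adenosines of double-stranded RNA into inosines, and the control group (n = 3), titled NC, was labelled wild type. Both were grown in RPMI medium with fetal bovine serum, both carry the same batch value and both give "No" under treatment. The labels do not say whether the controls received a control siRNA, so effects of siRNA delivery, or of the siRNA on other targets, cannot be told apart from loss of ADAR1. No label says that the samples of a group came from separate cultures, so every p-value refers to the spread among these 6 libraries, which may be technical.

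MicroRNAs are cut from hairpins in longer primary transcripts. In the nucleus the Microprocessor, made of the nuclease DROSHA and its RNA-binding partner DGCR8, releases a short hairpin, which the exportin encoded by XPO5 carries to the cytoplasm. There the nuclease DICER1, with the double-stranded RNA-binding proteins encoded by TARBP2 and PRKRA, trims it to a duplex, and 1 strand is loaded into an Argonaute protein (AGO1 to AGO4), which silences matching messenger RNAs. ADAR enzymes bind the same kind of RNA and can edit primary microRNAs. Microprocessor levels are also tied to each other, since DROSHA cuts hairpins within the DGCR8 messenger RNA and DGCR8 protein stabilises DROSHA protein.

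Total counts ranged from 15175619 to 17329443 per library. ADAR, the knockdown target, had 92.8, 95.8 and 77.6 counts-per-million (CPM) in the siADAR1 libraries, against 455.6, 431.5 and 443.5 CPM in the control libraries. Its log2 fold change was -2.32 ± 0.09 (SE; edgeR adjusted p = 1.06e-08). Of 7 squamous epithelial markers, 6 had at least 1 CPM in every library, while KRT14 reached at most 0.113 CPM. The summed level of the epithelial markers was 1950.0 to 2270.0 CPM in siADAR1 and 2360.0 to 2680.0 CPM in control, most of it KRT19. TP63 went the other way, at 155.0 to 185.0 CPM in siADAR1 and 110.3 to 134.8 CPM in control, and KRT6A was at 4.23 to 7.83 CPM in siADAR1 and 24.2 to 29.5 CPM in control. Among blood markers, PTPRC reached at most 0.0564 CPM in siADAR1 and 0.0673 CPM in control, and CD3E, LYZ and HBB were at 0 in every library. The 5 fibroblast markers summed to 72.3 to 84.3 CPM in siADAR1 and 40.1 to 59.0 CPM in control, from LUM and COL1A1, with DCN at 0. Endothelial and smooth muscle markers summed to at most 1.33 and 1.02 CPM in siADAR1, and to at most 2.15 and 1.71 CPM in control, with DES at 0. The part of these differences in the results below was not tested. The libraries numbered 1 lay apart from the others of their group on the second principal component, at 15 for siADAR1 replicate 1 against -8.07 and -10 for siADAR1 replicates 2 and 3, and at 36.1 for control replicate 1 against -19.6 and -13.3 for control replicates 2 and 3.

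DGCR8 and PRKRA, which encode RNA-binding partners of DROSHA and DICER1, fell to less than 50% of their control levels, AGO2 fell and AGO1 rose by smaller amounts, and the remaining 6 did not pass the test. All 10 had enough counts to be tested. Over the whole table, 51.0% of 15294 tested genes passed an edgeR quasi-likelihood adjusted p of 0.05, with 26.0% of the tested genes higher in siADAR1 and 25.0% lower. With raw library totals in place of composition-scaled (TMM) ones, 62.9% of all calls were higher, against 50.9%, and the median of all genes shifted by 0.118 on the log2 scale. Among the 10 genes 4 passed, 1 higher and 3 lower, which is no larger a share than that background. Their median log2 fold change was -0.08, against 0.00469 over all tested genes, and it turned to 0.03 with raw library totals. The ranges of the groups did not overlap for 5 of the 10, where 60.3% of all tested genes had groups that did not overlap.

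**Figure D1:**
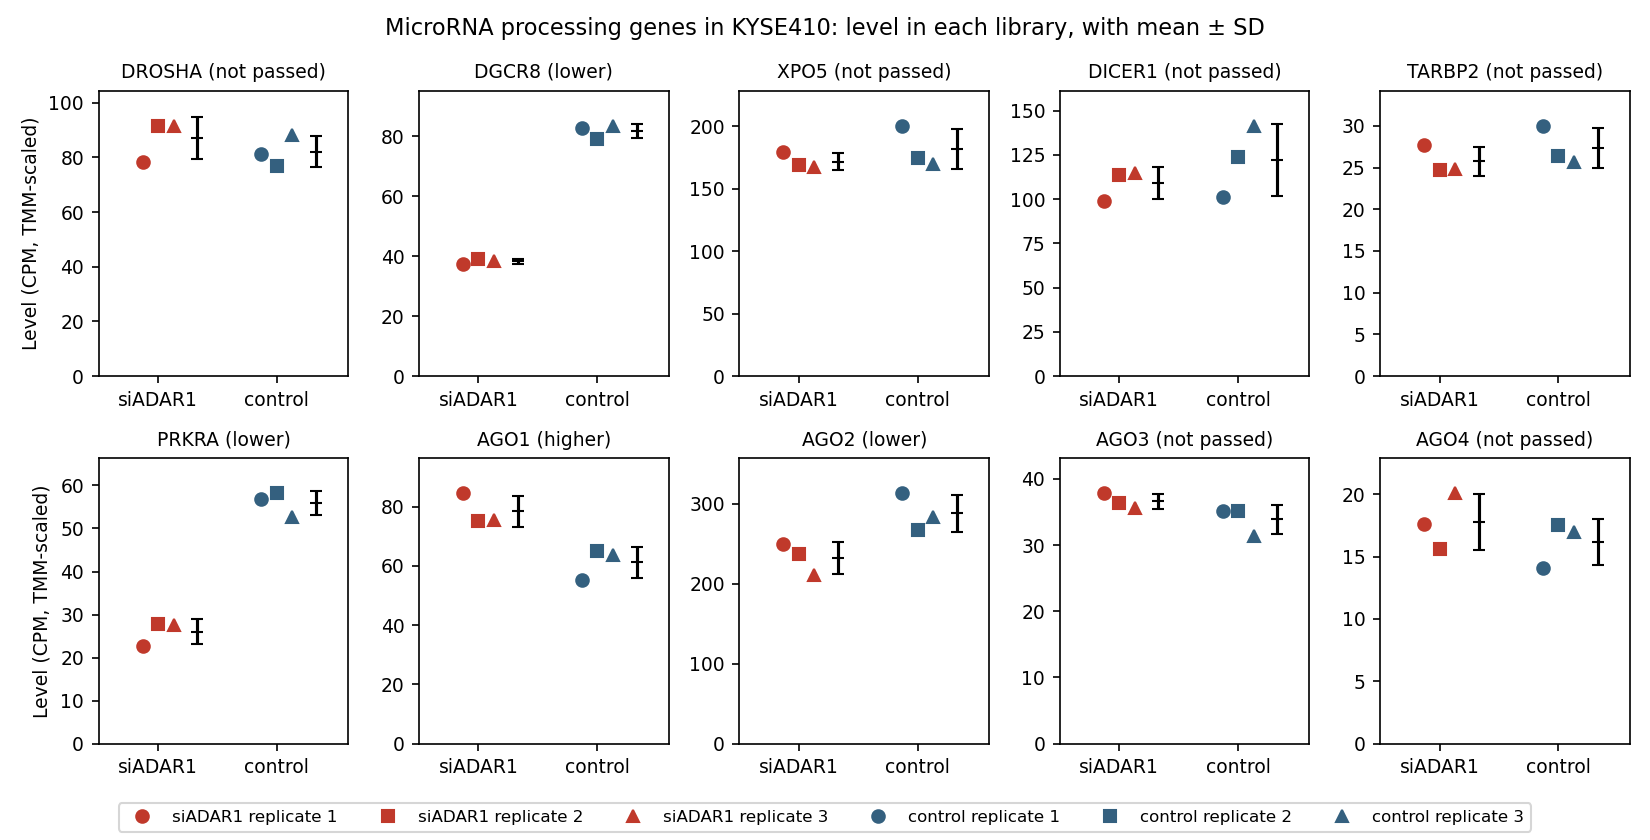
Level of each of the 10 microRNA processing genes in counts-per-million on TMM-scaled library sizes (vertical axes from 0), with 1 point per library (circle, square and triangle for replicates 1, 2 and 3) and the mean ± SD of each group beside the points. DGCR8 lies at 37.3 to 39.0 CPM in siADAR1 and 78.9 to 83.5 CPM in control, while the 2 groups overlap for DROSHA, XPO5, DICER1, TARBP2 and AGO4.

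DGCR8 (ENSG00000128191, chr22:20080232-20111877 on GRCh38, plus strand), the subunit that binds the primary hairpin, had 37.3, 39.0 and 38.4 CPM in siADAR1, against 82.6, 78.9 and 83.5 CPM in control. The 3 siADAR1 libraries lay close together and far below every control library. The mean was 38.2 ± 0.857 CPM in siADAR1 and 81.7 ± 2.41 CPM in control (SD, n = 3 each), or 46.8% of control. On the log2 scale the difference was -1.10 ± 0.09 (SE), with a 95% interval of -1.29 to -0.90 and an edgeR quasi-likelihood adjusted p of 1.34e-06. Its exons share 526 bases (7.19%) with the antisense RNA AC006547.2, which had 0 counts in every library, and 12 bases with TRMT2A, also on the opposite strand, and TRMT2A itself had a log2 fold change of 0.33 (edgeR adjusted p = 0.0134). No step that marks the strand is named in the protocol, so reads from such overlaps cannot be assigned to one gene.

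DROSHA (ENSG00000113360, chr5:31400497-31532196, minus strand), the nuclease that DGCR8 guides, had 78.5, 91.5 and 91.7 CPM in siADAR1, against 81.3, 76.9 and 88.2 CPM in control. The groups overlapped, with siADAR1 replicate 1 below 2 of the control libraries. The log2 fold change was 0.09 ± 0.10 (SE), with a 95% interval of -0.12 to 0.30 and an edgeR adjusted p of 0.485. Levels of different genes were compared per kilobase of the deposited gene length (RPKM), which is the summed length of all annotated exons. On that scale the log2 ratio of DGCR8 to DROSHA was -0.984, -1.14 and -1.17 in siADAR1, against 0.112, 0.126 and 0.00942 in control. The 2 messenger RNAs were thus at nearly equal length-scaled levels in each control library, and DROSHA exceeded DGCR8 in each siADAR1 library. The mean log2 ratio differed by -1.18 (siADAR1 minus control), and a two-sided exact permutation test gave p = 0.1, the smallest that 3 against 3 libraries allow (0.133 after Benjamini-Hochberg adjustment over 4 ratios).

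Exons of DGCR8 carry 2 annotated microRNA hairpins, MIR3618 and MIR1306. The mature products are shown because they place those hairpins in the messenger RNA that fell. The sequences are from RefSeq (GRCh38.p14, plus strand, 5′ to 3′), with the seed, bases 2 to 8, in capitals.
hsa-miR-3618, chr22:20085797-20085818, exonic but outside the coding sequence: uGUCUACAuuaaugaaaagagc
hsa-miR-1306-5p, chr22:20086072-20086093, within the coding sequence: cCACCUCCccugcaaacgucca
hsa-miR-1306-3p, chr22:20086112-20086129, within the coding sequence: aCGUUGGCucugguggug
The 3 seeds differ from one another. The rows of MIR3618 and MIR1306 were listed at 0 counts in all 6 libraries, which were made from polyadenylated RNA with selected cDNA fragments and do not measure mature microRNAs. Both rows (88 and 85 bases) lie wholly within DGCR8 exons on the same strand. Reads there cannot be assigned to one gene, and how such reads were counted is not given.

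XPO5 (ENSG00000124571, chr6:43522330-43576075, minus strand), the export receptor of the short hairpin, had 179.7, 169.0 and 167.2 CPM in siADAR1, against 200.7, 175.0 and 170.3 CPM in control. Both groups were highest in replicate 1 and they overlapped. The log2 fold change was -0.08 ± 0.09 (SE), with a 95% interval of -0.27 to 0.11 and an edgeR adjusted p of 0.461. XPO5 shares 348 exonic bases (4.08% of its own) with POLR1C on the opposite strand, which had a log2 fold change of -0.46 (edgeR adjusted p = 0.0144).

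DICER1 (ENSG00000100697, chr14:95086228-95158010, minus strand), the nuclease that cuts the exported hairpin, had 98.8, 113.8 and 114.6 CPM in siADAR1, against 101.3, 124.0 and 141.6 CPM in control. Control replicate 1 lay within the siADAR1 range and the other 2 control libraries above it. The log2 fold change was -0.17 ± 0.12 (SE), with a 95% interval of -0.42 to 0.09 and an edgeR adjusted p of 0.257. Without control replicate 1 it was -0.30 (edgeR adjusted p = 0.0196) and without both libraries numbered 1 it was -0.22 (edgeR adjusted p = 0.0103), so the call on DICER1 turned on that library. Over all 18 alternatives its adjusted p ranged from 0.0103 to 0.755. The log2 ratio of DICER1 to DROSHA on the length-scaled levels was -0.328, -0.346 and -0.338 in siADAR1, against -0.343, 0.0291 and 0.0221 in control. The groups overlapped through control replicate 1 (exact permutation p = 0.3, also 0.3 after adjustment over 4 ratios).

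PRKRA (ENSG00000180228, chr2:178431414-178451512, minus strand) encodes PACT, a partner of DICER1 that is also known as an activator of the antiviral kinase PKR. It had 22.6, 27.9 and 27.5 CPM in siADAR1, against 56.9, 58.2 and 52.7 CPM in control. Every siADAR1 library lay below every control library, and siADAR1 replicate 1 was the lowest. The mean was 26.0 ± 2.93 CPM in siADAR1 and 55.9 ± 2.88 CPM in control (SD, n = 3 each), or 46.5% of control. On the log2 scale the difference was -1.11 ± 0.11 (SE), with a 95% interval of -1.35 to -0.86 and an edgeR quasi-likelihood adjusted p of 5.83e-06. Of its exonic bases, 132 (3.35%) are shared with PJVK on the opposite strand, which had 15, 11 and 20 counts in siADAR1 and 27, 4 and 5 counts in control. A further 85 exonic bases are shared with the antisense RNA AC009948.1, which had 93, 88 and 112 counts in siADAR1 and 88, 116 and 96 counts in control.

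TARBP2 (ENSG00000139546, chr12:53500921-53506431, plus strand) encodes TRBP, the related DICER1 partner, which is known to inhibit PKR. It had 27.7, 24.7 and 24.8 CPM in siADAR1, against 30.0, 26.4 and 25.6 CPM in control, and the groups overlapped. The log2 fold change was -0.09 ± 0.12 (SE), with a 95% interval of -0.34 to 0.17 and an edgeR adjusted p of 0.561. The log2 ratio of TARBP2 to PRKRA was 0.239, -0.228 and -0.201 in siADAR1, against -0.974, -1.20 and -1.09 in control. Per length, PRKRA messenger RNA thus exceeded that of TARBP2 in each control library, and the 2 were nearly level in siADAR1, where replicate 1 had more TARBP2. The mean log2 ratio differed by 1.02 (exact permutation p = 0.1, the smallest possible, and 0.133 after adjustment over 4 ratios).

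The 250 bases ahead of an annotated start of DGCR8, PRKRA and AGO1 are shown because DGCR8 and PRKRA fell by similar amounts while AGO1 rose. They are from RefSeq (GRCh38.p14), 5′ to 3′ on the strand of the gene. Capitals mark the CCAAT box (CCAAT on either strand) in DGCR8 and AGO1 and the GC box (GGGCGG on either strand) in PRKRA. The 1 CCAAT match of PRKRA and the 2 GC boxes each of DGCR8 and AGO1 are left unmarked.
DGCR8, chr22:20079991-20080240, plus strand: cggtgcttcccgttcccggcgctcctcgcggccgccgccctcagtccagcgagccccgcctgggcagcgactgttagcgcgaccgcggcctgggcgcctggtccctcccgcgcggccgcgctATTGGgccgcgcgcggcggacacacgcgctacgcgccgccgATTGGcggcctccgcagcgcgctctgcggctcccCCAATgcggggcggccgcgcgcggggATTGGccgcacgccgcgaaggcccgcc
PRKRA, chr2:178451176-178451425, minus strand: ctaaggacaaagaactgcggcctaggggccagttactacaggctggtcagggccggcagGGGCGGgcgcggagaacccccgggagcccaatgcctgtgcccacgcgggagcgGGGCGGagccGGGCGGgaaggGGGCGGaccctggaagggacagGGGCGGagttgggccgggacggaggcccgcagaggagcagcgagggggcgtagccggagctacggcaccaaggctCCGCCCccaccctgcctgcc
AGO1, chr1:35882959-35883208, plus strand: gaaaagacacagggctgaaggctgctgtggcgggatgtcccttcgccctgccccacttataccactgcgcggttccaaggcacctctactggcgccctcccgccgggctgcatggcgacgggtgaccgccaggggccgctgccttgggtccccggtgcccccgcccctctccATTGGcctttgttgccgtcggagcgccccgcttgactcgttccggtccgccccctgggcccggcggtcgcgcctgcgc

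Promoter entries were found for 9 of the 10 genes, and the first entry of each gene was searched on both strands. The letters of a CCAAT box and a GC box can overlap, but no such overlap occurred in the 3 stretches shown. The PRKRA stretch also holds the start of PJVK on the opposite strand, and the PRKRA and AGO1 stretches both lie within the annotated spans of their genes, ahead of an inner start. The DGCR8 stretch held 4 CCAAT matches, where 32.0% of all 35116 promoter entries held at least 1 and 0.874% held 4 or more. DROSHA and TARBP2, which did not pass the expression test, held 3 each (2.93% of entries had 3 or more), AGO1, PRKRA and DICER1 held 1 each, and AGO3, AGO4 and XPO5 held 0. PRKRA held 6 GC boxes, where 42.6% of entries held at least 1 and 2.22% held 6 or more. The other 8 held at most 2. The E2F letters TTTGGCGC or TTTCCCGC occurred in 0 of the 9 and in 1.93% of all entries. With 3 motifs counted in each of 9 genes, the percentages of DGCR8 and PRKRA are the smallest of many and were not tested. These are matches of letters, and no binding was measured.

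AGO2 (ENSG00000123908, chr8:140520156-140635619, minus strand), the Argonaute known to cut its target, had 250.1, 237.4 and 210.6 CPM in siADAR1, against 313.6, 267.9 and 283.5 CPM in control. The groups did not overlap, and siADAR1 replicate 1 and control replicate 2 were the closest pair between them. The mean was 232.7 ± 20.2 CPM in siADAR1 and 288.3 ± 23.2 CPM in control (SD, n = 3 each). AGO2 had a log2 fold change of -0.31 ± 0.09 (SE), with a 95% interval of -0.51 to -0.11 and an edgeR adjusted p of 0.0126. The call was lost without siADAR1 replicate 3 (log2 fold change -0.23, edgeR adjusted p = 0.081) and with library totals alone in place of composition-scaled ones (-0.19, edgeR adjusted p = 0.0988).

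AGO1 (ENSG00000092847, chr1:35869808-35930528, plus strand) had 84.5, 75.2 and 75.5 CPM in siADAR1, against 55.2, 64.9 and 63.5 CPM in control. The libraries numbered 1 lay at the 2 extremes, highest in siADAR1 and lowest in control, and the groups did not overlap. The mean was 78.4 ± 5.30 CPM in siADAR1 and 61.2 ± 5.23 CPM in control (SD, n = 3 each). AGO1 rose by 0.36 ± 0.10 (SE) on the log2 scale, with a 95% interval of 0.14 to 0.57 and an edgeR adjusted p of 0.00898. Without both libraries numbered 1 the log2 fold change was 0.23 (edgeR adjusted p = 0.0135, with a range of 0.00176 to 0.0629 over all 18 alternatives).

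AGO3 and AGO4, whose proteins are less studied Argonautes, stand beside AGO1 on the plus strand of chromosome 1, in the order AGO4, AGO1, AGO3. There are 11917 bases between AGO4 and AGO1 and 189 bases between AGO1 and AGO3. AGO3 (ENSG00000126070, chr1:35930718-36072500) had 37.8, 36.4 and 35.5 CPM in siADAR1, against 35.1, 35.1 and 31.4 CPM in control. Its siADAR1 values all lay above its control values, by little, and the log2 fold change of 0.11 ± 0.10 (SE; 95% interval -0.11 to 0.34) did not pass (edgeR adjusted p = 0.394). AGO4 (ENSG00000134698, chr1:35808172-35857890) had 17.6, 15.6 and 20.1 CPM in siADAR1, against 14.1, 17.5 and 16.9 CPM in control. The groups overlapped, and the log2 fold change of 0.14 ± 0.15 (SE; 95% interval -0.18 to 0.46) did not pass (edgeR adjusted p = 0.458). AGO4 had the fewest reads of the 10 genes. The intervals of AGO3 and AGO4 overlap that of AGO1, and a difference in response among the 3 neighbours was not tested. Exact 50-base stretches of annotated AGO3 and AGO4 transcripts also occurred in transcripts of 198 and 44 genes elsewhere in the annotation, against 0 such genes for DROSHA, DGCR8, TARBP2, PRKRA, AGO1 and AGO2, so reads from such stretches of AGO3 and AGO4 are uncertain in origin.

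**Figure D2:**
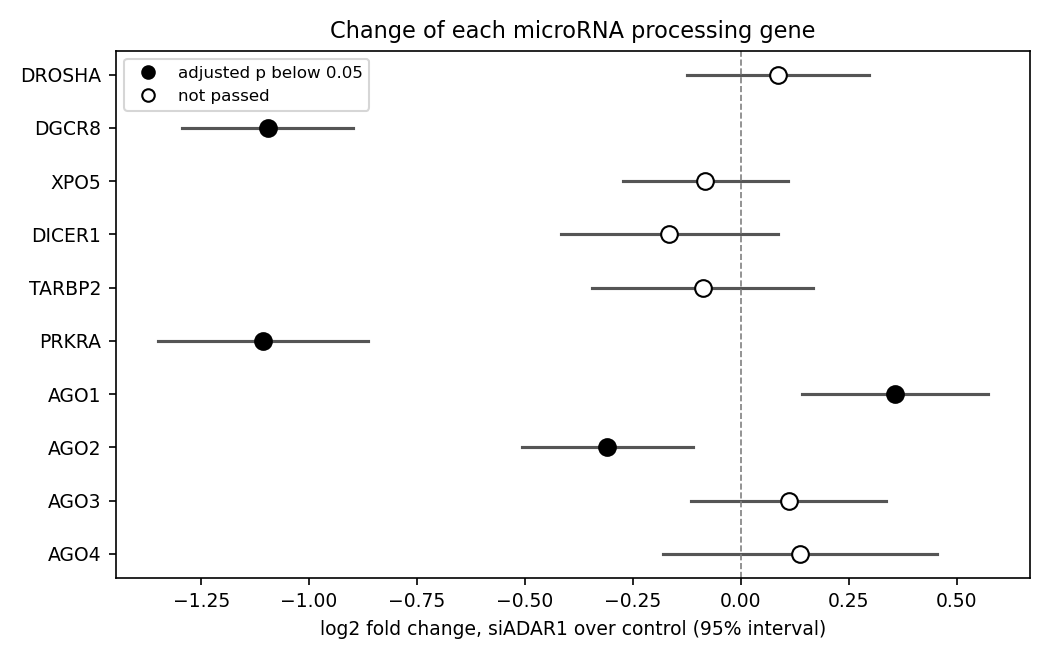
Log2 fold change of each of the 10 genes, siADAR1 over control (points, with 95% intervals as lines), with filled points for an edgeR adjusted p below 0.05 over all tested genes. DGCR8 and PRKRA lie near -1.1, AGO2 at -0.31 and AGO1 at 0.36, and the intervals of the other 6 include 0.

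Since the Argonautes take the same place in the silencing complex, the make-up of their messenger RNAs was examined in each library on length-scaled levels. AGO2 made up 60.5%, 61.8% and 57.4% of the summed AGO level in siADAR1, against 72.3%, 65.9% and 68.1% in control. The share of AGO1 was 23.3%, 22.3% and 23.4% in siADAR1, against 14.5%, 18.2% and 17.4% in control. AGO2 remained the most abundant of the 4 in every library, with a smaller share in each siADAR1 library, and AGO1 was second in every library. AGO3 averaged 7.06 ± 0.197% in siADAR1 and 6.05 ± 0.407% in control, and AGO4 10.0 ± 1.66% in siADAR1 and 8.44 ± 1.21% in control (SD, n = 3 each). The order of AGO3 and AGO4 depends on the gene length used. Without length scaling AGO3 was the higher, at means of 36.6 CPM in siADAR1 and 33.9 CPM in control. AGO4 had 17.8 CPM in siADAR1 and 16.2 CPM in control. For AGO1, AGO2 and AGO3 the groups did not overlap (exact permutation p = 0.1, the smallest possible, and 0.133 after adjustment over 4 shares), and for AGO4 they did (p = 0.5). The 4 shares add up to the whole, so a lower AGO2 share raises the summed share of the others. They are not separate results. The log2 ratio of AGO2 to AGO1 was 1.38, 1.47 and 1.29 in siADAR1, against 2.32, 1.86 and 1.97 in control, a mean difference of -0.669 (exact permutation p = 0.1, and 0.133 after adjustment over 4 ratios). Such ratios do not depend on how library sizes are scaled. The summed AGO level was 26.1, 24.3 and 23.2 RPKM in siADAR1, against 27.4, 25.7 and 26.3 RPKM in control, and the groups overlapped (exact permutation p = 0.2, with the replicate numbers not used as pairs). The siADAR1 library was the lower one at each of the 3 replicate numbers, and no paired test of this sum was run.

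**Figure D3:**
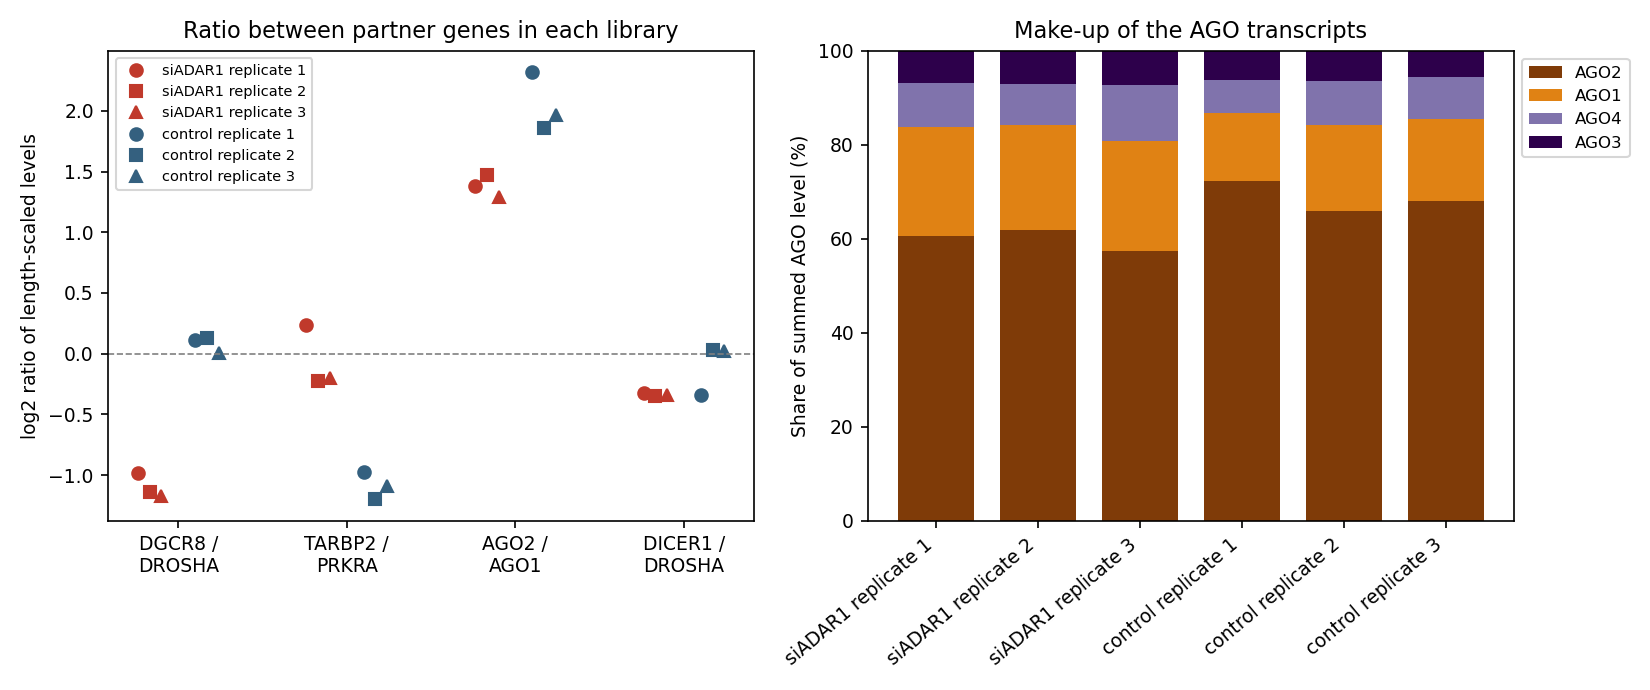
Left, the log2 ratio of length-scaled levels between partner genes in each library (siADAR1 red, control blue, replicates 1 to 3 as circle, square and triangle). Right, the share of AGO1 to AGO4 in the summed length-scaled AGO level, in %, with 1 bar per library, where AGO2 takes 57.4% to 61.8% in siADAR1 and 65.9% to 72.3% in control.

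By length-scaled level, the order in siADAR1 was XPO5 (20.2 ± 0.793 RPKM), AGO2, DROSHA, DICER1, PRKRA, TARBP2, AGO1, DGCR8, AGO4 and AGO3 (1.68 to 1.79 RPKM; mean ± SD or range, n = 3). In control it was XPO5 (21.4 ± 1.92 RPKM), AGO2, PRKRA, DGCR8, DROSHA, DICER1, TARBP2, AGO1, AGO4 and AGO3 (1.48 to 1.66 RPKM; n = 3). DGCR8 held rank 8 at 5.22 ± 0.117 RPKM in siADAR1 and rank 4 at 11.2 ± 0.330 RPKM in control. PRKRA held rank 5 at 6.59 ± 0.743 RPKM in siADAR1 and rank 3 at 14.2 ± 0.731 RPKM in control. Neighbours whose library ranges overlapped were PRKRA with TARBP2 and TARBP2 with AGO1 in siADAR1, and DGCR8 with DROSHA and DROSHA with DICER1 in control. This order also rests on the gene length used. Without length scaling AGO2 exceeded XPO5, at means of 232.7 against 171.9 CPM in siADAR1 and 288.3 against 182.0 CPM in control.

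**Figure D4:**
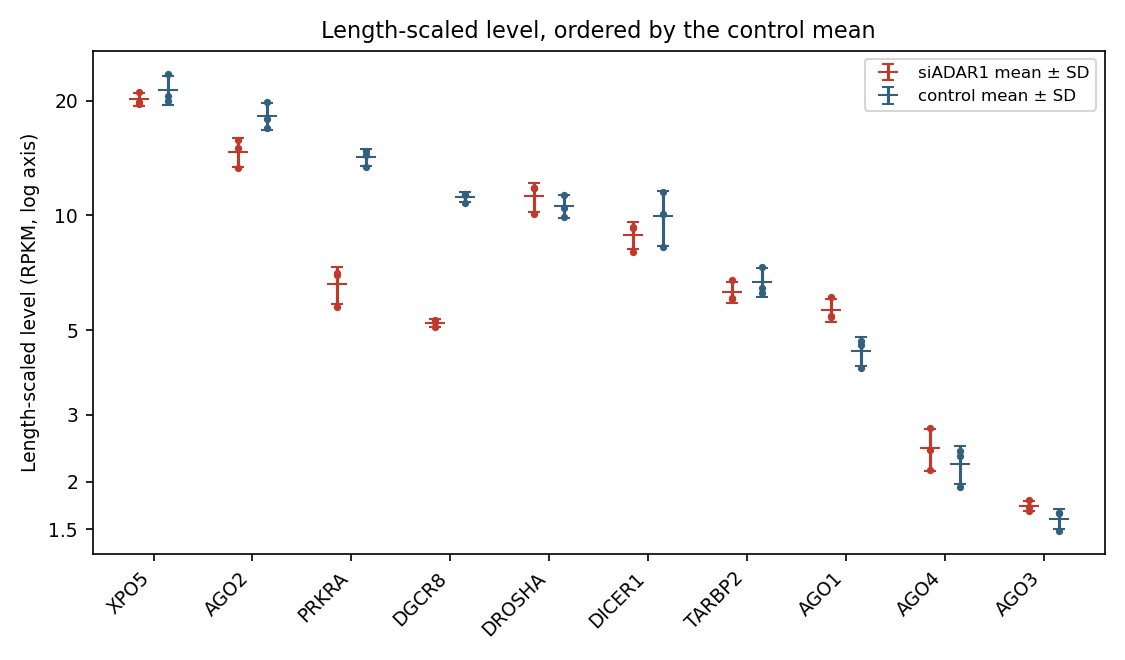
Length-scaled level (RPKM, log axis) of the 10 genes, ordered from left to right by the control mean, with points for the libraries and mean ± SD per group (siADAR1 red and left, control blue and right). PRKRA and DGCR8 leave the upper part of the order in siADAR1, at 6.59 and 5.22 RPKM against 14.2 and 11.2 RPKM in control.

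Among 11603 other protein-coding genes (minimum mean 2 CPM), those closest to DGCR8 in centred log2 CPM over the 6 libraries were NCEH1 (Euclidean distance 0.0781), POLE2 (0.0931) and DERL1 (0.0996), with log2 fold changes of -1.09, -1.08 and -1.11. Those closest to AGO1 were RAB40C (0.0554), PPP2R3C (0.0593) and WDR48 (0.0703), at 0.36, 0.34 and 0.32. With 6 libraries in 2 groups, such likeness mostly restates the difference between the groups.

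Around these 10 genes, 53 of 55 further genes of the pathway could be tested, of which 25 fell, 5 rose and 23 were not called at the same threshold. Their median log2 fold change was -0.19, and 56.6% passed, near the 51.0% of all tested genes. By direction the calls were uneven, since 25.0% of all tested genes fell and 26.0% rose. With library totals alone, 18 of these 53 fell and 9 rose, where 2887 of all 15294 tested genes fell and 4892 rose. Among 9 cofactors of the Microprocessor, 6 fell and 0 rose, with a median of -0.24, where 25.0% of all tested genes fell. HNRNPA1, which binds some primary hairpins, averaged 490.5 ± 60.8 CPM in siADAR1 and 896.9 ± 37.4 CPM in control (SD, n = 3 each), a log2 fold change of -0.87 ± 0.09 (SE; edgeR adjusted p = 8.27e-06). ERH, a small partner of the Microprocessor, averaged 76.5 ± 5.94 CPM in siADAR1 and 123.8 ± 12.0 CPM in control. The DEAD box helicases DDX5 and DDX17 had log2 fold changes of -0.24 ± 0.08 and -0.22 ± 0.08 (SE; edgeR adjusted p = 0.0206 and 0.0285). With library totals alone, 3 of these 9 fell, and 3 also fell without siADAR1 replicate 2, where 3305 of all 15815 tested genes fell.

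Of 4 genes for the Ran cycle that drives export, 3 fell (median -0.61), where 25.0% of all tested genes fell. RAN, the small GTPase that binds the exportin, averaged 431.5 ± 26.4 CPM in siADAR1 and 664.7 ± 54.4 CPM in control, and RCC1, its nucleotide exchange factor, 114.5 ± 1.66 CPM in siADAR1 and 187.5 ± 23.3 CPM in control (SD, n = 3 each). Of 9 chaperones and other factors of Argonaute loading, 7 fell and 0 rose, with a median of -0.52, where 25.0% of all tested genes fell. HSPA4 went the other way, with a log2 fold change of 0.19 ± 0.08 (SE; edgeR adjusted p = 0.0597), and did not pass. The number of loading factors that rose was 1 with library totals alone, a filter of 1 CPM in 3 libraries or protein-coding genes alone. It was also 1 without both libraries numbered 1. HSPA8, the constitutive HSC70 chaperone, averaged 1177 ± 128.2 CPM in siADAR1 and 2000 ± 85.4 CPM in control, and HSP90AB1 3343 ± 348.4 CPM in siADAR1 and 5545 ± 177.2 CPM in control (SD, n = 3 each). RAN and the chaperones serve many other processes, so these counts are not particular to microRNAs.

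Of 21 effectors that act downstream of Argonaute, 7 fell, 2 rose and 12 did not pass, so that 42.9% were called against 51.0% of all tested genes. Their median was -0.08, and 0.04 with library totals alone, so no common direction is given. CNOT8, a deadenylase of the CCR4-NOT complex, averaged 22.5 ± 1.22 CPM in siADAR1 and 48.0 ± 2.34 CPM in control. PAN2, the catalytic subunit of another deadenylase, averaged 43.3 ± 6.85 CPM in siADAR1 and 24.1 ± 2.62 CPM in control (SD, n = 3 each), with a log2 fold change of 0.85 ± 0.13 (SE; edgeR adjusted p = 1.79e-04). The Argonaute-binding scaffold genes TNRC6A, TNRC6B and TNRC6C did not pass, with log2 fold changes of -0.11, 0.09 and 0.17. The number of effectors that rose was 1 without siADAR1 replicate 2, without control replicate 1, without control replicate 2 or on the FPKM values. It was 4 when raw library totals set the scale, where 4892 of all 15294 tested genes rose.

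Of 10 tested genes for tailing, trimming and turnover of microRNAs and their precursors, 3 rose, 2 fell and 5 did not pass (median 0.11), a share of calls near the 51.0% of all tested genes. TUT7, a uridylyltransferase that tails precursor hairpins, had 88.7, 69.1 and 75.3 CPM in siADAR1, against 22.4, 29.1 and 30.0 CPM in control. It rose by 1.52 ± 0.13 (SE; edgeR adjusted p = 1.84e-06), the largest log2 fold change among the tested genes of the 5 lists and the 10 core genes. Its paralogue TUT4 averaged 40.7 ± 4.45 CPM in siADAR1 and 39.6 ± 5.28 CPM in control (SD, n = 3 each) and did not pass, with a log2 fold change of 0.04 ± 0.13 (SE; edgeR adjusted p = 0.812). DIS3L2, the exonuclease that degrades uridylated precursors, averaged 52.8 ± 6.06 CPM in siADAR1 and 29.3 ± 2.69 CPM in control, and rose by 0.85 ± 0.12 (SE; edgeR adjusted p = 6.87e-05). The number that fell in this list was 1 without siADAR1 replicate 2, siADAR1 replicate 3 or control replicate 3. It was 0 when raw library totals set the scale, where 2887 of all 15294 tested genes fell.

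**Figure D5:**
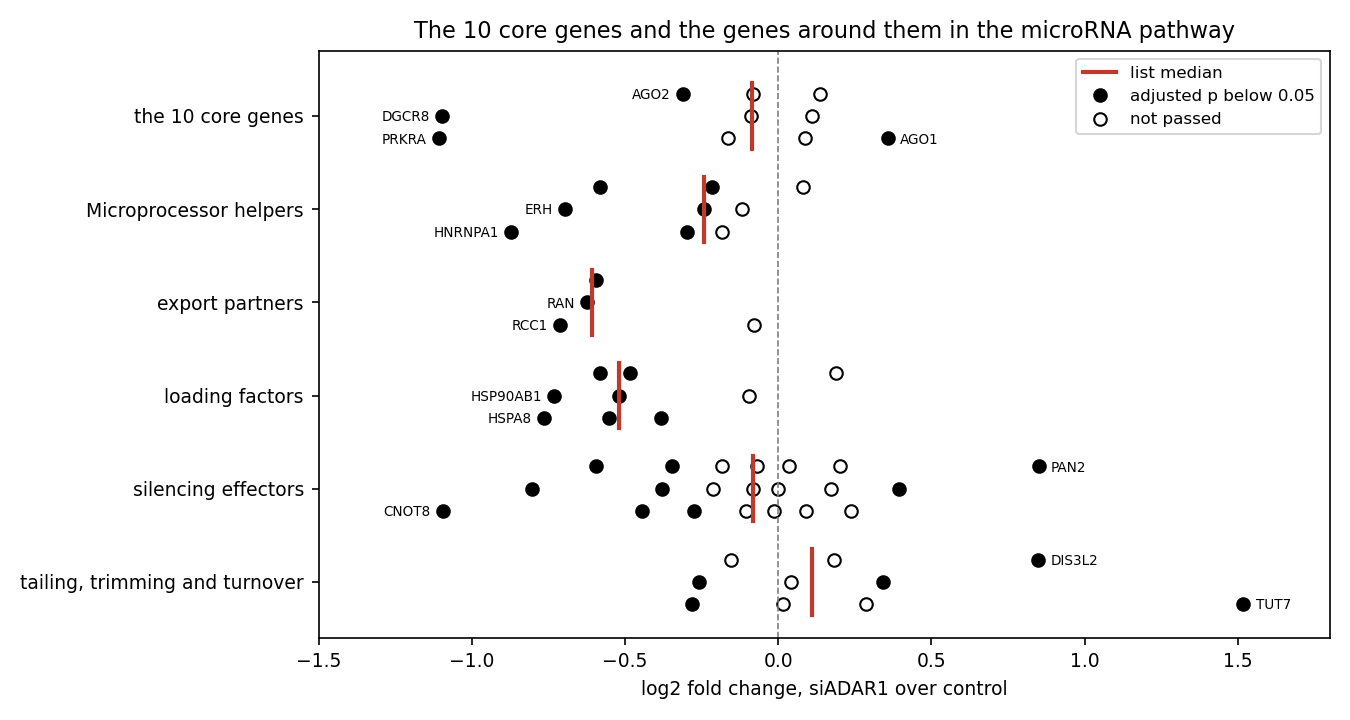
Log2 fold change (siADAR1 over control, horizontal axis) of the 10 core genes and of the tested genes in 5 lists around them, 1 point per gene, filled where the edgeR adjusted p was below 0.05, with a red bar at the median of each row (vertical offsets only separate the points). The loading factors and export partners lie mostly left of 0, and TUT7 lies farthest right at 1.52.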

How the data were processed

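Polyadenylated RNA from 3 siADAR1 and 3 control samples of KYSE410 was sequenced, per the labels' protocols. Per the submitters' processing notes, the tools included HISAT2 2.0.5, fastp and CASAVA. The counting tool is not given in the sources used here, nor is the build. The coordinates of all 58735 genes equalled those of GENCODE release 29 on GRCh38. The deposited counts are unscaled whole reads for each gene, per the file headers. The deposited FPKM imply library totals of 1.05 to 1.06 times the summed counts in siADAR1 and 0.966 to 0.97 times in control. Columns were assigned by group and replicate number in the titles, and 0 columns of per-sample values were left over.

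Counts were tested in R 4.3.3 with edgeR 4.0.16 (filterByExpr with minimum count 10, TMM scaling, robust quasi-likelihood F test, two-sided, Benjamini-Hochberg over 15294 genes, threshold 0.05). This fit was first run on counts simulated from its own means and dispersions. Far fewer genes were changed in them than were called here, so that run cannot show how the fit behaves with so many changes. The SE is the log2 fold change over the square root of F. RPKM is TMM-scaled CPM over the deposited gene length. Exact permutation tests used all 20 arrangements of the 6 libraries. Alternatives used DESeq2 1.42.0 and limma 3.58.1 among others. Same-numbered libraries of the groups deviated together (correlations of 0.33, 0.129 and 0.218 for numbers 1, 2 and 3 over 12764 genes). Among pairs with different numbers, siADAR1 replicate 3 with control replicate 2 gave 0.15. For siADAR1 replicate 2 with control replicate 3 it was 0.0786, and the rest lay at -0.283 to -0.159. Numbers 2 and 3 were thus not clearly matched as pairs. The numbers were taken as pairs in an alternative, and no label explains them. Libraries within a group differed beyond counting noise (chi-square per degree of freedom 3.95 to 18).

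The 10 genes, the lists and the ratios were chosen with earlier results of these data known. The text names all 10 genes, ADAR, the 2 genes with the smallest p in each further list, the 3 genes closest to the rising and the falling gene with the smallest p, and overlapping genes. DDX5, DDX17, HSPA4, TNRC6A to TNRC6C and TUT4 were added after their values were seen. One marker of the blood list is not reported here.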

Additional observations from a re-analysis of the deposited data

How the results depend on the processing

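DGCR8 and PRKRA were lower at an adjusted p below 0.05 under all 18 alternatives, with log2 fold changes of -1.12 to -0.969 and -1.16 to -0.989. The replicate block changed no call on the 10 genes and called 8582 genes against 7804. AGO2 did not pass with library totals alone (-0.191), with FPKM plus 1 and no filter (-0.295) or without siADAR1 replicate 3, and ranged from -0.363 to -0.234 with 1 library left out. AGO1 did not pass with FPKM plus 1 and no filter (0.295), which left 0 of the 10 genes higher. DICER1 ranged from -0.297 to -0.0586 with 1 library left out and passed without control replicate 1 and, at -0.219, without both libraries numbered 1, an alternative chosen after seeing the data. The causes were not tested. Library totals alone moved all genes up by a median of 0.118 and the share of calls that were higher to 62.9% from 50.9%. With them XPO5 and TARBP2 turned to 0.0365 and 0.0307, the median of the 10 genes to 0.0336 and that of the further lists to -0.0677, with 9 of those genes higher. The FPKM alternatives gave 3 higher there. With 1 library left out the number of genes higher in the further lists was 3 to 5, the median of the further lists -0.225 to -0.183 and that of the 10 genes -0.115 to -0.0225. Only the TARBP2 to PRKRA difference moved by more than the control SD among ratios and shares, to 0.873 without siADAR1 replicate 1. At this depth a gene as low as AGO4 had a log2 interval from -0.18 to 0.46.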

Other observations

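LIN28A, which encodes an RNA-binding protein known to block maturation of the let-7 microRNAs, had too few counts to be tested, with 17, 6 and 6 counts in siADAR1 and 1, 0 and 0 counts in control. No fold change is given. The genes of this paragraph were named after their values were seen. Its paralogue LIN28B averaged 3.13 ± 0.285 CPM in siADAR1 and 2.57 ± 0.585 CPM in control (SD, n = 3 each), with a log2 fold change of 0.29 ± 0.27 (SE) that did not pass (edgeR adjusted p = 0.402). TRIM71, the other untested gene of the lists, had 2, 3 and 1 counts in siADAR1 and 0, 3 and 0 counts in control.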
